A study of Mus musculus with 18 samples.

Results

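The change in gene expression of wild-type (WT) cultures of mouse dorsal root ganglion neurons between 12 and 48 h was described over 17198 genes. It rests on 6 of the 18 samples of the study, found by genotype and time in the sample titles: 3 WT cultures at 12 h (replicates 1, 2 and 5) and 3 WT cultures at 48 h (replicates 1, 2 and 3). RNA sequencing covered cultures of WT mice and of heterozygous (HET) mice, which carry a tm1a allele of Dynlrb1 that is a knockout-first insertion in this light chain gene of cytoplasmic dynein, at 12, 24 and 48 h. Each of these 6 groups held 3 cultures, called biological replicates in the design. All 6 WT cultures at 12 and 48 h were labelled with the same cell type and the same genotype. Time in culture was the only labelled difference apart from the replicate number. Among them, number 5 stood only at 12 h and number 3 only at 48 h, so time and number are partly confounded. Mouse strain, age, sex, medium and the treatment of non-neuronal cells are not given in the sources used here. Nor is it given whether the cultures came from separate animals, so p-values measure the spread between the deposited values of these cultures.

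Dorsal root ganglia hold the cell bodies of the neurons that sense touch, body position, temperature, itch and pain. Taking a ganglion apart cuts the axon of every neuron, and sensory neurons respond to axon injury with transcription factors such as ATF3 and JUN, followed by effector genes of axon growth, while genes of mature sensory function are turned down. The ganglion also holds satellite glia, Schwann cells, fibroblasts, endothelial cells and blood cells, some of which divide in a dish. These were bulk samples, in which fewer cells of a type and less RNA per cell cannot be told apart.

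Values are the authors' normalized counts, and those of single genes are given in the order of replicates 1, 2 and 5 at 12 h and 1, 2 and 3 at 48 h. Differences are log2(normalized count + 1) at 48 h minus 12 h from limma fitted to all 18 samples. A gene was called higher or lower where its p, adjusted by Benjamini-Hochberg over all 17198 genes, was under 0.05. Sequencing depth is unknown, because the values had been adjusted before deposit, so precision rests on the spread of 3 cultures a group. On the log2 scale the 12 h cultures correlated with each other across genes at r from 0.982 to 0.989, and the 48 h cultures at 0.987 to 0.989. Replicate 3 at 48 h lay nearer to the 12 h cultures (r from 0.969 to 0.972) than replicate 1 (0.952 to 0.961) and replicate 2 (0.945 to 0.952). It was the lowest of the 48 h cultures in 55.5% of the genes called higher and the highest in 57.8% of those called lower. Replicate 5 at 12 h stood apart in neutrophil genes, which are given below. Xist, the RNA of the inactive X chromosome in female cells, had normalized counts of 18316, 1854 and 83.4 at 12 h and 17285, 10302 and 19.0 at 48 h. Both times held cultures with high and with very low Xist. It was chosen after its values were seen, and sex was no term of the fit.

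The labelled cell type was checked against 22 pan-neuronal and sensory identity genes, all of which were measured. Their summed normalized count, in which abundant genes weigh most, was 528430 to 644470 at 12 h and 555390 to 590320 at 48 h, so these ranges overlapped. Their mean log2 levels, minus the WT 12 h mean, did not overlap, at -0.07 to 0.05 and 0.13 to 0.23. The median difference of all genes was 0.11. Of the 22 listed genes, 5 (22.7%) were higher at 48 h, 5 (22.7%) were lower and 12 did not pass. The higher share was below the 30.0% of all genes and the lower share above their 17.1%. The list median log2 fold change was 0.05, and on the second scaling described below the median was -0.06. Peripherin (Prph), an intermediate filament of small sensory neurons, had 70708, 75447 and 75203 at 12 h and 68783, 69012 and 90036 at 48 h, with overlapping groups (log2 fold change 0.03, SE 0.13, limma adjusted p 0.866). Elavl4, a neuronal RNA-binding protein, had 6544, 6746 and 7617 at 12 h and 20345, 20554 and 17022 at 48 h. Every 48 h culture was above every 12 h culture (log2 fold change 1.47, SE 0.24, limma adjusted p 0.000172). Isl1, a transcription factor of sensory neuron identity, had 2564, 2330.1 and 2569 at 12 h and 8217, 9847 and 8449.5 at 48 h and rose in the same way (log2 fold change 1.83, SE 0.24, limma adjusted p 4.33e-05). Of the 5 that were lower, Snap25 had the largest change, at 53418, 53445 and 40166 at 12 h and 30090, 25311 and 27227 at 48 h (log2 fold change -0.82, SE 0.14, limma adjusted p 0.000224). The count of lower genes was 2 without replicate 2 at 12 h, 2 without replicate 2 at 48 h and 3 without replicate 1 at 12 h.

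Between 12 and 48 h, 8098 of 17198 genes (47.1%) were called. Higher at 48 h were 5152 (30.0%) and lower were 2946 (17.1%). Changes of at least 1 log2 unit were held by 1384 of the genes called higher and 1190 of those called lower, changes of at least 2 by 260 and 244, and changes of at least 3 by 61 and 45. The groups did not overlap in 7698 of the 8098 genes, which the call itself favours, and in 9511 (55.3%) of all genes. The median of all genes was 0.11 on the normalized counts. The authors also deposited unlabelled columns, 1 per sample, that differ from the normalized counts by 1 factor per sample, and on these plain columns the median was 0.01. There, 4177 genes were called higher (24.3%) and 3760 lower (21.9%), so the share of higher genes among those called was 52.6% in place of 63.6%. No called gene (0 of 8098) changed sign between the 2 scalings. The factors move the differences of all genes by about the same small amount, so this count says little about stability. In all 6 fits that left out 1 of the cultures, 5448 genes were called in the same direction. In the authors' deposited table, 7803 genes (45.4%) had an adjusted p under 0.05 for the same comparison, of which 7511 were also called here.

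**Figure D1:**
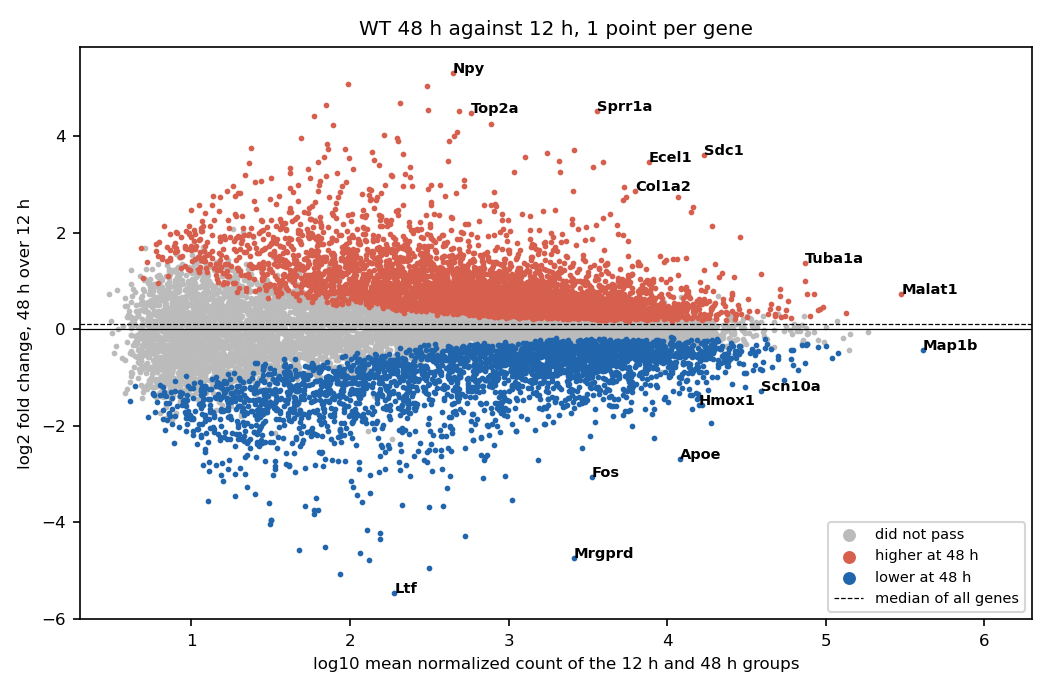
Log2 fold change from 12 to 48 h in WT cultures (vertical axis, log2 units) against mean expression (horizontal axis, log10 of the mean normalized count) for the 17198 genes, with the 5152 genes called higher and the 2946 called lower in colour. The dashed line at the median of all genes (0.11) lies slightly above 0, and called genes reach both ends of the expression range.

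Npy, Cldn4, Krt19 and Il24 were among the largest rises, and the receptors Mrgprd and Mrgprb4 and the granule genes Ltf and Ngp among the largest falls. Neuropeptide Y (Npy, chr6:49822710-49829507, mm10), a signalling peptide of sympathetic neurons that injured sensory neurons are known to make, had 7.43, 24.4 and 34.8 at 12 h and 887, 1297 and 415 at 48 h. The lowest 48 h culture was far above the highest 12 h culture (log2 fold change 5.31, SE 0.72, limma adjusted p 5.58e-05). Claudin 4 (Cldn4), a tight junction protein, had 6.20, 3.57 and 1.46 at 12 h and 93.9, 391 and 84.2 at 48 h, with replicate 2 highest at 48 h (log2 fold change 5.09, SE 0.74, limma adjusted p 8.12e-05). Keratin 19 (Krt19), an intermediate filament of simple epithelia, had 13.8, 11.7 and 10.5 at 12 h and 537, 536 and 127 at 48 h. It was low in every 12 h culture and lowest at 48 h in replicate 3 (log2 fold change 4.69, SE 0.59, limma adjusted p 3.62e-05). The cytokine Il24 had 1.55, 4.45 and 5.80 at 12 h and 111, 245 and 53.5 at 48 h and rose without overlap (log2 fold change 4.66, SE 0.59, limma adjusted p 3.91e-05). Cldn4 and Il24 were near the bottom of the scale at 12 h, so their folds and ranks depend on the pseudocount. With 0.1 and 10 in place of 1, Cldn4 changed by 5.46 and 3.54 log2 units and Il24 by 5.01 and 3.18. Fezf2, a transcription factor known from the forebrain, had 23.6, 9.20 and 31.3 at 12 h and 391, 1174 and 219 at 48 h and also rose without overlap (log2 fold change 4.54, SE 0.55, limma adjusted p 3.19e-05). The other large rises were those of Sprr1a, given below, Pmp2, a lipid-binding protein of myelin (4.52), Loxl3, a lysyl oxidase (4.25), Lipn, a lipase (4.41), and the cell cycle genes described below, all called. Sdc1, a heparan sulfate proteoglycan of the cell surface that was picked after its values were seen, had 1834, 1886 and 3351 at 12 h and 17760, 55895 and 21489 at 48 h and rose without overlap (log2 fold change 3.61, SE 0.44, limma adjusted p 3.29e-05).

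Among the falls, Mrgprd (chr7:145314835-145324086, mm10), a receptor of non-peptidergic nociceptors that innervate the skin, had 3149.9, 5521 and 6166 at 12 h and 198, 73.1 and 381 at 48 h. Every 48 h culture was below every 12 h culture, and replicate 2 was lowest (log2 fold change -4.74, SE 0.68, limma adjusted p 7.41e-05). Sostdc1, a secreted inhibitor of BMP and WNT signals, had 401, 255 and 228 at 12 h and 7.24, 11.9 and 25.1 at 48 h and fell without overlap (log2 fold change -4.35, SE 0.52, limma adjusted p 2.96e-05). Wfdc2, a secreted protease inhibitor of epithelia, had 92.4, 97.5 and 144 at 12 h and 6.77, 6.52 and 8.61 at 48 h, again with separate groups (log2 fold change -3.74, SE 0.48, limma adjusted p 3.91e-05). The other large falls were those of the receptors Mrgprb4 and Mrgpra3, the neutrophil genes Ltf, Ngp, Retnlg, Lcn2 and Cd177, and the red cell genes Slc4a1 and Alas2, which are given with their groups. The folds of those near the bottom of the scale at 48 h depend on the pseudocount too, with -5.50 and -3.54 log2 units for Mrgprb4 and -5.85 and -4.03 for Ltf at pseudocounts of 0.1 and 10.

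**Figure D2:**
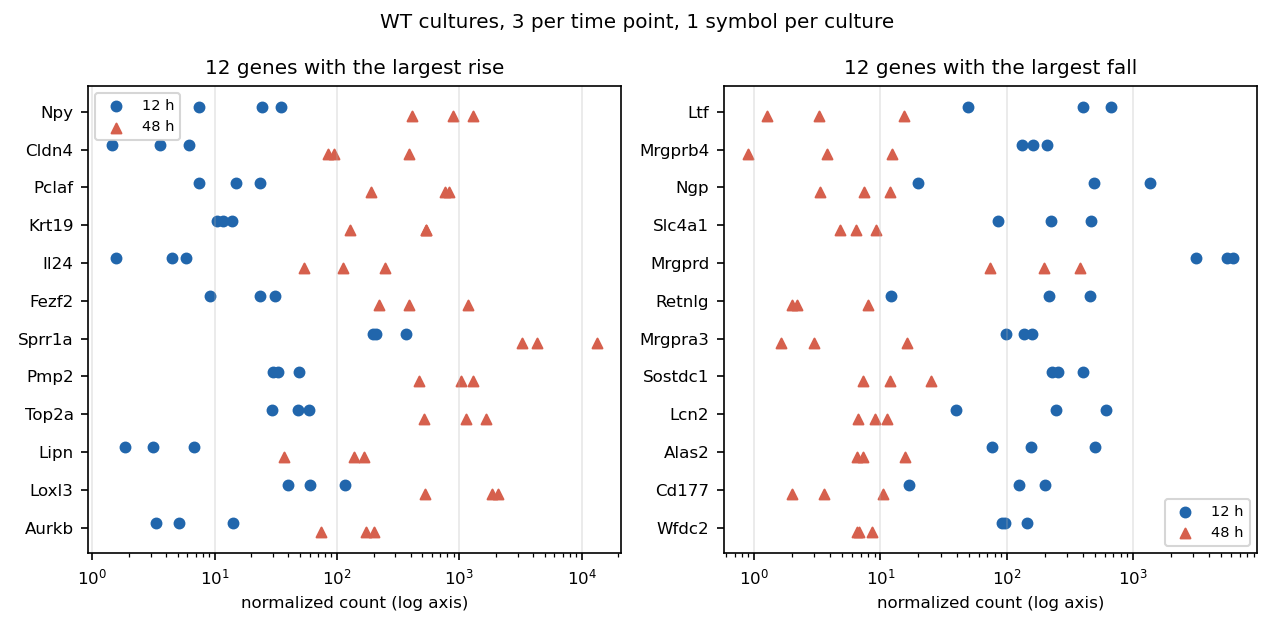
Normalized counts (log10 axis) in each of the 3 WT cultures at 12 h and the 3 at 48 h for the 12 largest rises and the 12 largest falls among called genes without overlap of the groups and with a mean of at least 100 in the higher group. Npy at the top left runs from 7.43 to 34.8 at 12 h and from 415 to 1297 at 48 h, and the widest spreads are those of the neutrophil genes at 12 h; Pclaf is the gene that the deposited table names 2810417H13Rik.

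Growth effectors, the proteins that injured sensory neurons are known to make while their axons regrow, moved in both directions. Of 36 measured, 16 (44.4%) were higher at 48 h, 5 (13.9%) were lower and 15 did not pass, beside 30.0% and 17.1% over all genes. The median log2 fold change was 0.17, beside 0.11 for all genes. The count of higher members was 10 without replicate 2 at 48 h. Sprr1a, a small proline-rich protein that promotes axon outgrowth, had 369.8, 209 and 197 at 12 h and 4306, 13347 and 3263 at 48 h. All 3 cultures at 48 h were high, replicate 2 the most (log2 fold change 4.52, SE 0.62, limma adjusted p 5.93e-05). Ecel1, an endopeptidase induced by nerve injury, had 1709.7, 819 and 986 at 12 h and 7959.9, 24956 and 9270.5 at 48 h and rose with no overlap (log2 fold change 3.46, SE 0.46, limma adjusted p 5e-05). Csrp3, a muscle LIM protein also found in regenerating sensory neurons, had 2.69, 1.0026 and 1.57 at 12 h and 49.9, 76.0 and 10.8 at 48 h. It was near the bottom of the scale at 12 h, so its difference of 3.75 log2 units (SE 0.61, limma adjusted p 0.000167) rests on low values. Gap43, a growth cone protein, had 14591, 13350 and 11340 at 12 h and rose to 16646, 19150 and 20340 (log2 fold change 0.52, SE 0.13, limma adjusted p 0.00309). Anxa1 (2.34), Fgf2 (1.57), Lgals1 (1.46) and Ncam1 (1.08) were also called higher. The lower members were Cntn1 (-0.997), Dpysl2 (-0.69), Gfra1 (-0.56), Flrt3 (-0.75) and Nefl (-0.49). Flrt3 was no longer called without replicate 1 at 48 h (limma adjusted p 0.0672), nor Nefl, the light neurofilament, without replicate 1 at 12 h (0.054).

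Neuropeptide genes divided into rises and falls of similar number. Of 20 measured, 8 (40%) were higher at 48 h, 8 (40%) were lower and 4 did not pass. The shares over all genes were 30.0% and 17.1%, so the lower share stood further above its background. The list median log2 fold change was 0.26. Urocortin (Ucn), a peptide of the corticotropin-releasing family, had 65.6, 40.9 and 42.9 at 12 h and 661, 1298 and 597 at 48 h. Its groups were far apart (log2 fold change 4.01, SE 0.65, limma adjusted p 0.000167). Neurotensin (Nts) was at a like level in the 12 h cultures, 1331, 1392 and 1392, and at 8162, 13236 and 7265 at 48 h. All 48 h values were higher, replicate 2 the most (log2 fold change 2.75, SE 0.28, limma adjusted p 2.23e-05). PACAP (Adcyap1), a peptide that sensory neurons make after axotomy, had 12747, 14753 and 13912 at 12 h and 28238, 32950 and 31029 at 48 h and rose with little spread (log2 fold change 1.15, SE 0.15, limma adjusted p 4.66e-05). Cck (2.28), Bdnf (0.88) and Scg2 (0.38) were called higher too. Galanin (Gal), another peptide of injured sensory neurons, had 935, 1254 and 874 at 12 h and 1035, 1217 and 1394 at 48 h. Its groups overlapped and it was not called (log2 fold change 0.26, SE 0.24, limma adjusted p 0.406).

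The 8 lower genes included the main peptides of nociceptors. Somatostatin (Sst) had 138, 245 and 165 at 12 h and 22, 12.7 and 24.9 at 48 h, and every 48 h culture was below every 12 h culture (log2 fold change -3.15, SE 0.48, limma adjusted p 0.000117). The CGRP genes had 38381, 47276 and 36277 at 12 h and 21030, 18840 and 25611 at 48 h for Calca (log2 fold change -0.90, SE 0.20, limma adjusted p 0.00153) and 7529, 10326 and 6882 at 12 h and 2215, 1904 and 3714 at 48 h for Calcb (log2 fold change -1.70, SE 0.36, limma adjusted p 0.00118). Substance P (Tac1) had 7007, 10248 and 9056 at 12 h and 2841, 1914 and 3722 at 48 h and fell likewise (log2 fold change -1.67, SE 0.32, limma adjusted p 0.000574). Nmb (-1.47) and Chga (-0.45) were also called lower.

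The bases before the start of Sprr1a and Ucn are shown because both genes rose by over 4 log2 units and held a motif that was searched for. AP-1 is the dimer of JUN and FOS proteins, and CRE is the cyclic AMP response element bound by CREB. They are the 150 bases before the RefSeq start on GRCm38.p6 (mm10), read 5′ to 3′ along the gene's strand. Capitals mark the AP-1 motif TGACTCA in Sprr1a (chr3:92485882-92486031, minus strand) and the CRE letters TGACGTC in Ucn (chr5:31138896-31139045, minus strand), searched on both strands. Other motifs are not marked.
Sprr1a: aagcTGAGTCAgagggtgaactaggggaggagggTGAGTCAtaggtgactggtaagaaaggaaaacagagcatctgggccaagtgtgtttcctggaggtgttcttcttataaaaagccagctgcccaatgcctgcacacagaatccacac
Ucn: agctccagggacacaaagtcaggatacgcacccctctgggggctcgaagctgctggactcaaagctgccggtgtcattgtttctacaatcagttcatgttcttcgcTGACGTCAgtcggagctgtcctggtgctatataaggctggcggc
Sprr1a held 2 matches to AP-1, both on the reverse strand. The capitals in Ucn are a palindrome that matches the CRE letters on both strands, so its 2 matches overlap. These 2 promoters were chosen after the matches were seen, and the same window of Npy, Nts and Ecel1 held neither set of letters. Of 2 windows of Il11, 1 held a single AP-1 match. Across promoters of 300 bases, 250 before to 50 after the start, TGACTCA stood in 4.19% of the 16353 promoters matched to 12961 measured genes and in 5.2% of all 32851 in the RefSeq table. It stood in 8.3% of the 229 promoters of genes called higher by at least 2 log2 units and in 6.19% of the 194 of genes called lower by as much, but in 3.97% of the 4967 of all genes called higher and in 5.2% of the 2943 of all called lower. TGACGTC stood in 4.78% of promoters of measured genes, in 3.06% of those higher by at least 2 log2 units and in 3.09% of those lower by as much.

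No injury transcription factor was called higher. Of 25 measured, 0 (0%) were higher at 48 h, 16 (64%) were lower and 9 did not pass, with a median log2 fold change of -0.46. Over all genes 17.1% were lower. Jun, a factor that drives the response to axotomy, had 21439, 23050 and 19502 at 12 h and 13183, 13493 and 14908 at 48 h. Every 48 h culture was lower (log2 fold change -0.62, SE 0.10, limma adjusted p 0.000215). Cebpd had 2061, 1964 and 1416 at 12 h and 398, 414 and 423 at 48 h, with 48 h cultures close to each other (log2 fold change -2.12, SE 0.22, limma adjusted p 2.23e-05). Fosl1 (-1.53), Myc (-1.20), Cebpb (-1.14) and Klf6 (-0.71) were called lower. Atf3, the most used marker of axotomized sensory neurons, had 28810, 30159 and 24692 at 12 h and 16367, 22418 and 21398 at 48 h. The groups did not overlap, but it was not called on the normalized counts (log2 fold change -0.48, SE 0.21, limma adjusted p 0.0685). On the plain columns the limma adjusted p was 0.0366, and the authors' deposited edgeR adjusted p was 0.0469. Sox11, which promotes axon regrowth, had 10497, 13532 and 17949 at 12 h and 10714, 14370 and 15866 at 48 h and did not pass (log2 fold change -0.02, SE 0.21, limma adjusted p 0.944).

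Most immediate early genes, which cells transcribe within minutes of a stimulus, fell. Of 21 measured, 0 (0%) were higher at 48 h, 15 (71.4%) were lower and 6 did not pass, with a median log2 fold change of -0.87, beside 17.1% lower over all genes. Atf3, Jun, Junb, Fos, Egr1 and Klf4 belong to this list and to the injury transcription factors, so they count in both. Fosb had 1758, 1954 and 2103 at 12 h and 136, 133 and 252 at 48 h. All 48 h values lay far below the 12 h values (log2 fold change -3.54, SE 0.36, limma adjusted p 2.23e-05). Fos had 6097, 6212 and 5521 at 12 h and 617, 559.6 and 1033 at 48 h and fell in the same way (log2 fold change -3.06, SE 0.36, limma adjusted p 2.93e-05). Egr1 had 5641, 5971 and 4399 at 12 h and 1683, 824 and 1053 at 48 h, with separate groups (log2 fold change -2.22, SE 0.34, limma adjusted p 0.000127), and Nr4a1 had 1549, 1243 and 909 at 12 h and 375, 221 and 217 at 48 h (log2 fold change -2.20, SE 0.29, limma adjusted p 4.74e-05). Arc (-1.60), Nr4a3 (-1.75) and Egr4 (-1.65) were called lower. Junb (0.08), Btg2 (0.06) and Dusp1 (0.12) did not pass. The CRE letters TGACGTC stood in 33.3% of the 21 RefSeq promoters of this list, beside 4.78% of promoters of measured genes and 3.21% of all promoters. In the 150 bases before the start of Fos, Fosb and Nr4a1 they were not found. A match is a description of these letters only.

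Genes of non-peptidergic nociceptors, the sensory neurons of itch and of skin touch and pain, showed the lowest median among the neuronal lists. Of 17 measured, 1 (5.88%) was higher at 48 h, 12 (70.6%) were lower and 4 did not pass, with a median log2 fold change of -1.62, beside 30.0% higher and 17.1% lower over all genes. Mrgprb4, a receptor of neurons that respond to stroking, had 131, 210.0 and 160.1 at 12 h and 3.74, 0.895 and 12.3 at 48 h. Every 48 h culture was far below every 12 h culture (log2 fold change -5.07, SE 0.86, limma adjusted p 0.000233). Mrgpra3, an itch receptor, had 98.3, 158 and 137 at 12 h and 2.98, 1.64 and 16.2 at 48 h, with replicate 3 highest at 48 h (log2 fold change -4.52, SE 0.77, limma adjusted p 0.00024). The Mrgpr genes are a family of near copies, and how reads were assigned among them is not given in the sources used here, so their single values are uncertain. Scn11a, the persistent sodium channel of these neurons, had 23264, 29572 and 37091 at 12 h and 8092, 5223 and 10588 at 48 h and fell without overlap (log2 fold change -1.94, SE 0.27, limma adjusted p 6.5e-05). Mrgpre was the exception, at 431, 244 and 412 at 12 h and 1055, 876 and 1189.5 at 48 h (log2 fold change 1.55, SE 0.23, limma adjusted p 0.000103). P2rx3, the ATP receptor of these neurons, had 14013, 16905 and 19939 at 12 h and 18480, 20889 and 19302 at 48 h. Its groups overlapped and it did not pass (log2 fold change 0.22, SE 0.13, limma adjusted p 0.184).

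Most genes of peptidergic nociceptors and temperature sensing fell as well. Of 17 measured, 1 (5.88%) was higher at 48 h, 12 (70.6%) were lower and 4 did not pass, with a median log2 fold change of -0.90, beside 30.0% higher and 17.1% lower over all genes. The cold channel Trpm8 had 986, 1070.1 and 1124 at 12 h and 379, 275 and 461 at 48 h, with separate groups (log2 fold change -1.54, SE 0.20, limma adjusted p 4.33e-05). Trpa1, a channel opened by irritants, had 2443, 3682 and 3885 at 12 h and 1148, 878 and 1657 at 48 h (log2 fold change -1.46, SE 0.33, limma adjusted p 0.00191). The heat channel Trpv1 had 4496, 5049 and 5917 at 12 h and 4143, 3257 and 4852 at 48 h. These groups overlapped, and Trpv1 was not called on the normalized counts (log2 fold change -0.35, SE 0.16, limma adjusted p 0.0848), with 0.0318 on the plain columns. Gfra3, the receptor of artemin, was the called rise, at 3344, 3198 and 3799 at 12 h and 7338, 9833 and 8669 at 48 h (log2 fold change 1.31, SE 0.15, limma adjusted p 2.81e-05).

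Mechanoreceptor and proprioceptor genes were mixed. Of 20 measured, 4 (20%) were higher at 48 h, 10 (50%) were lower and 6 did not pass, with a median log2 fold change of -0.32, beside 30.0% higher and 17.1% lower over all genes. Etv1, a transcription factor of proprioceptors, had 862, 965 and 1143 at 12 h and 278, 127 and 226 at 48 h and fell without overlap (log2 fold change -2.29, SE 0.31, limma adjusted p 5.17e-05). Ntrk3, the neurotrophin 3 receptor, had 3312, 2578 and 4634 at 12 h and 1305, 1085 and 1052 at 48 h (log2 fold change -1.58, SE 0.33, limma adjusted p 0.00112). Piezo2, the mechanically gated channel of touch, had 27931, 26217 and 36073 at 12 h and 16861, 13532 and 18318 at 48 h; the groups were again separate (log2 fold change -0.89, SE 0.15, limma adjusted p 0.000297). Spp1 (osteopontin), Fam19a4 and Whrn rose, by 2.31, 2.11 and 1.49 log2 units (limma adjusted p 0.000235, 0.000866 and 0.00248). Spp1 is also made by macrophages and glia. Macrophage markers are given below, and their part in the rise of Spp1 was not tested. Pvalb fell (log2 fold change -1.16, SE 0.38, limma adjusted p 0.0183) but was not called without replicate 1 at 12 h (limma adjusted p 0.101), replicate 2 at 48 h (0.0501) or replicate 3 at 48 h (0.0578).

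Voltage-gated ion channels were lower in most of the called cases. Of 13 sodium channel subunits, 1 (7.69%) was higher at 48 h, 10 (76.9%) were lower and 2 did not pass, with a median log2 fold change of -0.79. Scn10a, the channel of the nociceptor action potential, had 44849, 53261 and 67148 at 12 h and 21824, 18015 and 28673 at 48 h, and no 48 h culture reached a 12 h value (log2 fold change -1.28, SE 0.17, limma adjusted p 5.17e-05). Scn1a had 6666, 5753 and 4835 at 12 h and 2232, 2078 and 1950.2 at 48 h (log2 fold change -1.45, SE 0.19, limma adjusted p 5.02e-05), and Scn4a had 393, 274 and 473 at 12 h and 58.0, 70.1 and 134 at 48 h (log2 fold change -2.17, SE 0.32, limma adjusted p 9.65e-05). Scn9a, a channel that sets the threshold of nociceptors, fell less (log2 fold change -0.45, SE 0.12, limma adjusted p 0.00498). The called rise was Scn2a1, at 475, 474 and 731 at 12 h and 937, 1076 and 998 at 48 h (log2 fold change 0.87, SE 0.19, limma adjusted p 0.00166). Of 47 potassium and HCN channel genes, 3 (6.38%) were higher at 48 h, 23 (48.9%) were lower and 21 did not pass, with a median log2 fold change of -0.62. Kcna2 had 12165, 11133 and 13768 at 12 h and 3748, 3278 and 3849 at 48 h; the groups were far apart (log2 fold change -1.77, SE 0.17, limma adjusted p 2.23e-05). Kcns1 (-1.97) and Kcnip2 (-1.96) were called lower. The potassium channel genes called higher were 1 on the plain columns in place of 3, 1 without replicate 2 at 48 h and 2 without any other single culture. Of 20 calcium channel subunits, 3 (15%) were higher at 48 h, 6 (30%) were lower and 11 did not pass, with a median log2 fold change of -0.19, beside 30.0% higher and 17.1% lower over all genes. The T-type channels moved apart, with Cacna1h at 1352, 1279 and 1569.6 at 12 h and 3898, 3474 and 2969 at 48 h (log2 fold change 1.30, SE 0.32, limma adjusted p 0.00386) and Cacna1i at 687, 554 and 991 at 12 h and 233, 154 and 329.7 at 48 h (log2 fold change -1.66, SE 0.31, limma adjusted p 0.00053). Cacna2d1, the gabapentin-binding subunit known to rise after nerve injury, had 12878, 12490 and 19150 at 12 h and 21432, 19154 and 25679 at 48 h (log2 fold change 0.59, SE 0.17, limma adjusted p 0.00882).

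Most synaptic release genes fell. Of 31 measured, 2 (6.45%) were higher at 48 h, 23 (74.2%) were lower and 6 did not pass, beside 30.0% and 17.1% over all genes. The list median log2 fold change was -0.60. The count of lower genes was 14 without replicate 2 at 48 h. Cplx2, which clamps vesicle fusion, had 28726, 22913 and 18289 at 12 h and 9391, 8217 and 8326 at 48 h; the 48 h cultures were tightly grouped and lower (log2 fold change -1.41, SE 0.19, limma adjusted p 4.88e-05). The calcium sensor Syt2 had 7897, 6775 and 5587 at 12 h and 2525, 2377 and 2502 at 48 h (log2 fold change -1.44, SE 0.17, limma adjusted p 3.06e-05). Syt4, a vesicle protein that differs from Syt2 in its calcium binding, went the other way, at 49398, 58255 and 65188 at 12 h and 85265, 100810 and 99071 at 48 h (log2 fold change 0.73, SE 0.12, limma adjusted p 0.000176). The vesicular glutamate transporter Slc17a6 rose too, from 18703, 19430 and 20031 to 25780, 27392 and 28075 (log2 fold change 0.48, SE 0.10, limma adjusted p 0.000897).

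**Figure D3:**
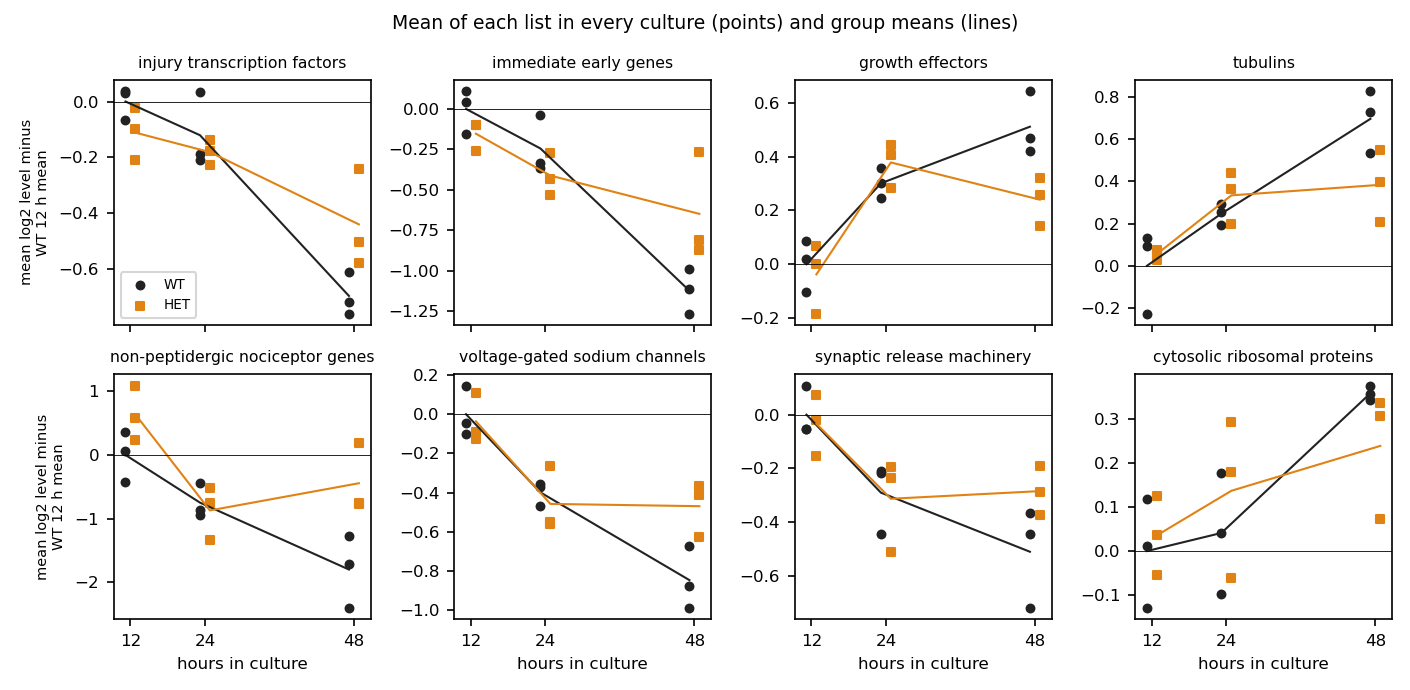
Mean log2 level of 8 gene lists in every culture, minus the mean of the WT 12 h cultures (vertical axis, log2 units), against hours in culture, with WT as circles, HET as squares and lines through group means. In WT the means of injury transcription factors, immediate early genes, non-peptidergic nociceptor genes, sodium channels and synaptic genes lie below 0 at 48 h and those of growth effectors, tubulins and ribosomal proteins above it.

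Most tubulin genes rose and none was called lower. Of 16 measured, 10 (62.5%) were higher at 48 h, 0 (0%) were lower and 6 did not pass, with a median log2 fold change of 0.66, beside 30.0% higher and a median of 0.11 over all genes. Tuba1a, the main alpha-tubulin of growing neurons, had 41926, 47304 and 35898 at 12 h and 104460, 115270 and 100600 at 48 h. Every 48 h culture was above every 12 h culture (log2 fold change 1.36, SE 0.15, limma adjusted p 2.69e-05). Tubb6 had 2412, 2079 and 1392 at 12 h and 7863, 10615 and 5016 at 48 h (log2 fold change 1.97, SE 0.28, limma adjusted p 7.96e-05). Tubb3, the neuronal beta-tubulin, had 67444, 66894 and 56458 at 12 h and 98914, 109650 and 108170 at 48 h, with separate groups (log2 fold change 0.73, SE 0.11, limma adjusted p 0.000132). Tubulin genes are near copies of each other, so the share of reads each received is uncertain.

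Kinesins, the motors that mostly carry cargo away from the cell body or act in cell division, were called at about the shares of all genes (30.0% higher and 17.1% lower). Of 32 measured, 10 (31.2%) were higher at 48 h, 7 (21.9%) were lower and 15 did not pass, with a median log2 fold change of 0.08, which was -0.02 on the plain columns. The largest rises were those of the mitotic kinesins Kif4, at 41.9, 27.2 and 28.5 at 12 h and 439, 416 and 145 at 48 h (log2 fold change 3.19, SE 0.56, limma adjusted p 0.000306), and Kif2c, at 13.2, 16.8 and 15.7 at 12 h and 145, 98.7 and 69.1 at 48 h (log2 fold change 2.64, SE 0.37, limma adjusted p 7.3e-05). Kif5a, a neuronal cargo motor, had 65225, 68215 and 78876 at 12 h and 54079, 45500 and 58845 at 48 h and fell (log2 fold change -0.43, SE 0.10, limma adjusted p 0.00234). Without replicate 2 at 48 h, 4 kinesins were lower. Of 32 dynein and dynactin genes, 7 (21.9%) were higher at 48 h, 6 (18.8%) were lower and 19 did not pass, with a median log2 fold change of 0.04, and on the plain columns the median was -0.07 with 6 higher and 10 lower. The share higher was below the 30.0% of all genes and the share lower near 17.1%. Dctn1, the largest dynactin subunit, had 24452, 26450 and 25241 at 12 h and 16767, 14994 and 17452 at 48 h (log2 fold change -0.63, SE 0.09, limma adjusted p 6.86e-05). Dync1i1, the neuronal intermediate chain, had 7654, 8102 and 6887 at 12 h and 4751, 4438 and 5544 at 48 h (log2 fold change -0.62, SE 0.13, limma adjusted p 0.00127). Dynll1, a light chain, had 6445, 6211 and 5422 at 12 h and 8753, 9027 and 8762 at 48 h and rose (log2 fold change 0.56, SE 0.09, limma adjusted p 0.000211). Dynlrb1 (chr2:155236533-155250277, mm10), the gene altered in the HET mice, had 6674, 6589 and 5321 at 12 h and 5995, 5678 and 6372 at 48 h in WT. These groups overlapped, and Dynlrb1 did not pass (log2 fold change -0.04, SE 0.12, limma adjusted p 0.828).

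Genes of protein synthesis and turnover were called higher more often than lower. Of 83 cytosolic ribosomal protein genes, 44 (53.0%) were higher at 48 h, 2 (2.41%) were lower and 37 did not pass, with a median log2 fold change of 0.38, beside 30.0% higher over all genes. The 2 lower calls were gone without replicate 2 at 12 h and without replicate 1 or replicate 2 at 48 h, and 1 was left without replicate 1 at 12 h. Rplp0, of the ribosomal stalk, had 11158, 10324 and 8922 at 12 h and 17014, 18636 and 15048 at 48 h (log2 fold change 0.74, SE 0.14, limma adjusted p 0.000591). Rpl35 had 725, 786 and 579 at 12 h and 1311, 1566 and 1208 at 48 h, again with no overlap (log2 fold change 0.97, SE 0.16, limma adjusted p 0.000214). Ribosomal protein genes have many processed pseudogenes, so their values are uncertain. Of 39 proteasome subunits, 24 (61.5%) were higher at 48 h, 1 (2.56%) was lower and 14 did not pass, with a median log2 fold change of 0.29. Psmd8 had 7316, 7283 and 6136 at 12 h and 10940, 12405 and 11056 at 48 h (log2 fold change 0.73, SE 0.10, limma adjusted p 4.59e-05). The called fall was that of Psmb8, an immunoproteasome subunit (log2 fold change -0.65, SE 0.21, limma adjusted p 0.0184), which was not called without replicate 2 at 12 h (limma adjusted p 0.0563), replicate 1 at 48 h (0.0545) or replicate 2 at 48 h (0.0796). Ctsd and Ctsb are proteases that break down proteins in lysosomes. Ctsd had 53234, 49807 and 44307 at 12 h and 89478, 110620 and 94216 at 48 h (log2 fold change 0.996, SE 0.12, limma adjusted p 3.06e-05) and Ctsb 84138, 82782 and 77165 at 12 h and 107090, 118060 and 110370 at 48 h (log2 fold change 0.46, SE 0.08, limma adjusted p 0.000293); neither overlapped. Of 77 subunits of oxidative phosphorylation, 14 (18.2%) were higher at 48 h, 0 (0%) were lower and 63 did not pass, with a median log2 fold change of 0.10. The share called higher was below the 30.0% of all genes, and the count was 7 on the plain columns with a median of -0.01, and was 4 without replicate 5 at 12 h, 9, 6 and 7 without replicate 1, 2 or 3 at 48 h.

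The 8 genes with the highest mean normalized counts over the 6 cultures that were called in each direction changed by less than 1 log2 unit. Akap12, a scaffold of kinases, had 74915, 74277 and 81540 at 12 h and 100780, 103700 and 99132 at 48 h (log2 fold change 0.40, SE 0.08, limma adjusted p 0.000677), and Rtn4, which encodes Nogo, had 76123, 80432 and 78696 at 12 h and 103790, 113920 and 97804 at 48 h (log2 fold change 0.42, SE 0.08, limma adjusted p 0.000678); both rose with no overlap. The nuclear RNA Malat1 was called higher and the microtubule protein Map1b lower, but leaving out single cultures ended both calls. Malat1 had 215170, 167020 and 284720 at 12 h and 234500, 445910 and 447260 at 48 h (log2 fold change 0.73, SE 0.24, limma adjusted p 0.0177), with limma adjusted p of 0.0956 without replicate 2 at 12 h, 0.0932 without replicate 2 at 48 h and 0.0799 without replicate 3 at 48 h. Map1b had 457720, 391700 and 562500 at 12 h and 388260, 311860 and 340190 at 48 h (log2 fold change -0.43, SE 0.16, limma adjusted p 0.034), with 0.0617 and 0.162 without replicate 1 or 5 at 12 h and 0.131 and 0.0724 without replicate 2 or 3 at 48 h. Neither was called in a fit of the 6 cultures alone (limma adjusted p 0.0579 for Malat1 and 0.0658 for Map1b). With the replicate number as a block, Map1b was not called either (limma adjusted p 0.0553).

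**Figure D4:**
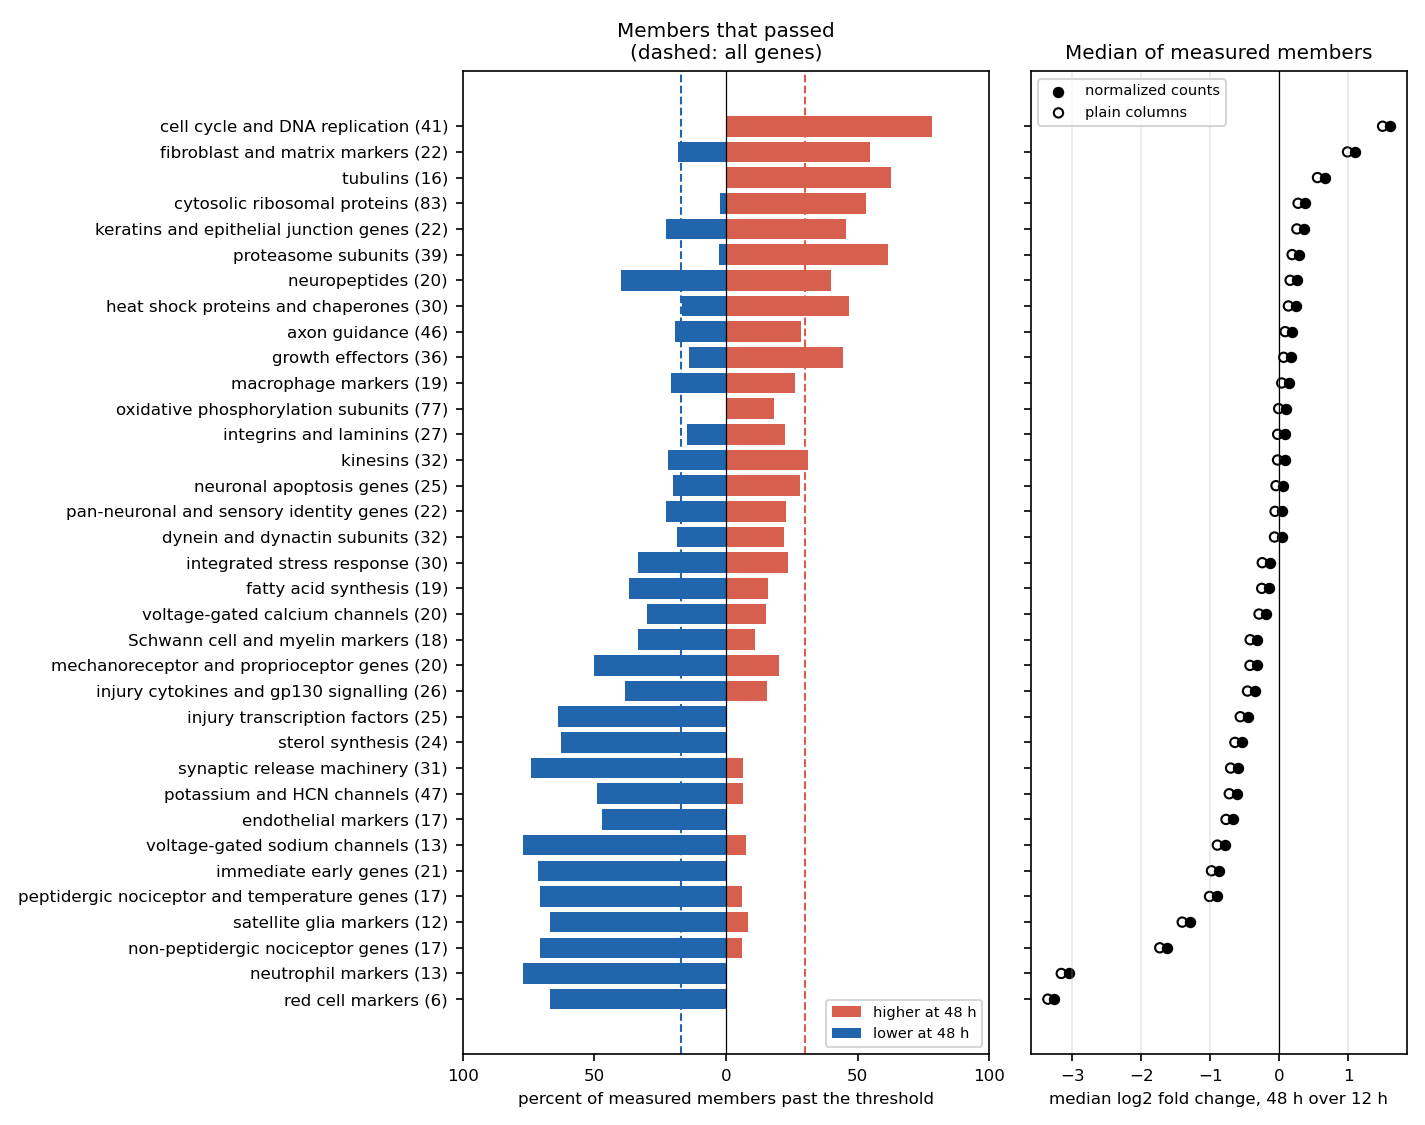
Percent of the measured members of 35 gene lists called higher (right) or lower (left) at 48 h, with dashed lines at the 30.0% and 17.1% of all genes, and the median log2 fold change of each list under both scalings. Cell cycle, tubulin and proteasome genes have the highest shares called higher, and neutrophil, sodium channel and synaptic genes the highest shares called lower.

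Sterol synthesis genes fell in 15 of 24 cases and none was called higher. Of 24 sterol synthesis genes, 0 (0%) were higher at 48 h, 15 (62.5%) were lower and 9 did not pass, beside 30.0% and 17.1% over all genes. The list median log2 fold change was -0.54, and without replicate 2 at 48 h the lower count was 8. Hmgcs1, which acts early in cholesterol synthesis, had 24567, 29075 and 23878 at 12 h and 17771, 13104 and 16301 at 48 h, with every 48 h culture lower (log2 fold change -0.72, SE 0.16, limma adjusted p 0.00196). Of 19 fatty acid synthesis genes, 3 (15.8%) were higher at 48 h, 7 (36.8%) were lower and 9 did not pass, with a median log2 fold change of -0.15, and the lower count was 4 without replicate 5 at 12 h and 4 without replicate 2 at 48 h. The desaturase Scd1 had 20780, 27206 and 28644 at 12 h and 11518, 7569 and 13320 at 48 h and fell without overlap (log2 fold change -1.27, SE 0.22, limma adjusted p 0.000249).

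Stress genes did not move as 1 group. Of 30 genes of the integrated stress response, 7 (23.3%) were higher at 48 h, 10 (33.3%) were lower and 13 did not pass. This response is the program that follows phosphorylation of the initiation factor eIF2. The higher share was below the 30.0% of all genes and the lower share above their 17.1%. The list median log2 fold change was -0.14, and the lower count was 6 without replicate 2 at 48 h. Lower members were Slc7a11, a cystine transporter, at 4209.6, 3978 and 3459 at 12 h and 1186, 1199.7 and 1381 at 48 h (log2 fold change -1.63, SE 0.28, limma adjusted p 0.000288), and Ppp1r15a, a phosphatase subunit that ends the response, at 14726, 16787 and 12845 at 12 h and 4579, 4496 and 6793 at 48 h (log2 fold change -1.50, SE 0.27, limma adjusted p 0.000415). Higher members were Atf5, at 4218, 3282 and 2751 at 12 h and 6774, 7341 and 6623 at 48 h (log2 fold change 1.04, SE 0.19, limma adjusted p 0.00043), and the serine synthesis gene Phgdh (1.07, limma adjusted p 0.00489). Atf4, the central factor, was called lower (log2 fold change -0.36, SE 0.13, limma adjusted p 0.0299), but not without WT 12 h replicate 1 (limma adjusted p 0.0857), without WT 12 h replicate 2 (limma adjusted p 0.107), without WT 48 h replicate 1 (limma adjusted p 0.0823) and without WT 48 h replicate 2 (limma adjusted p 0.0973). Of 30 heat shock and chaperone genes, 14 (46.7%) were higher at 48 h, 5 (16.7%) were lower and 11 did not pass. The lower share was near the 17.1% of all genes and the higher share above their 30.0%. The list median log2 fold change was 0.24. The inducible chaperone genes Hspa1a and Hspa1b had 1461, 1136 and 963 at 12 h and 313, 247 and 318 at 48 h and 1753, 1428 and 1348 at 12 h and 517, 417 and 485 at 48 h. Both fell (log2 fold change -2.003, SE 0.27, limma adjusted p 5.7e-05 and log2 fold change -1.67, SE 0.21, limma adjusted p 3.72e-05); they are near-identical copies, so the division of reads between them is uncertain. Hmox1, the heme oxygenase, had 27537, 27595 and 16544 at 12 h and 8196, 7862 and 7576 at 48 h (log2 fold change -1.56, SE 0.27, limma adjusted p 0.00026). The chaperone Calr of the endoplasmic reticulum had 19010, 16746 and 15226 at 12 h and 36557, 39314 and 31415 at 48 h and rose (log2 fold change 1.07, SE 0.17, limma adjusted p 0.000173), as did Hspb1, a small heat shock protein of regenerating sensory neurons, at 6338, 5030.2 and 4110.2 at 12 h and 9942, 11246 and 9405 at 48 h (log2 fold change 1.001, SE 0.13, limma adjusted p 4.49e-05).

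Injury cytokine genes moved in both directions. Of 26 injury cytokine and gp130 signalling genes, 4 (15.4%) were higher at 48 h, 10 (38.5%) were lower and 12 did not pass. The median log2 fold change was -0.35. Beside all genes, with 30.0% higher and 17.1% lower, the higher share was smaller and the lower share larger. Il11, a cytokine that signals through gp130, had 255, 181 and 129.9 at 12 h and 3158, 2636 and 1224 at 48 h; no 48 h culture was near a 12 h value (log2 fold change 3.57, SE 0.44, limma adjusted p 3.39e-05). Csf1, a growth factor that injured sensory neurons make for microglia, had 7575, 5155 and 3674 at 12 h and 14876, 17064 and 10974 at 48 h and rose (log2 fold change 1.43, SE 0.29, limma adjusted p 0.00088). Il6 had 85.8, 184 and 149.7 at 12 h and 20.5, 24.0 and 54.7 at 48 h and fell (log2 fold change -2.11, SE 0.40, limma adjusted p 0.000553), as did the chemokine Cx3cl1, at 1842, 1372 and 1031 at 12 h and 469, 309 and 556 at 48 h (log2 fold change -1.67, SE 0.27, limma adjusted p 0.000149). Of 25 apoptosis genes, 7 (28%) were higher at 48 h, 5 (20%) were lower and 13 did not pass, with a median log2 fold change of 0.06, which was -0.05 on the plain columns. These shares are near the 30.0% and 17.1% of all genes. The BH3-only genes, which promote cell death, did not move together. Hrk had 122, 53.6 and 84.2 at 12 h and 525, 841 and 307 at 48 h (log2 fold change 2.63, SE 0.37, limma adjusted p 6.89e-05) and Pmaip1 (Noxa) 417, 376 and 322 at 12 h and 1554, 2998 and 1577 at 48 h (log2 fold change 2.39, SE 0.29, limma adjusted p 3.22e-05), both higher with no overlap. Bbc3 (Puma) had 1904, 1782 and 1418 at 12 h and 689, 837 and 957 at 48 h and fell (log2 fold change -1.04, SE 0.23, limma adjusted p 0.00153). Trim17, a ubiquitin ligase that promotes neuronal apoptosis, had 281, 303 and 254 at 12 h and 70.7, 62.1 and 97.4 at 48 h and fell too (log2 fold change -1.87, SE 0.24, limma adjusted p 4.19e-05). Ngfr, the p75 neurotrophin receptor, had 42343, 35159 and 28065 at 12 h and 14989, 15070 and 17413 at 48 h (log2 fold change -1.14, SE 0.15, limma adjusted p 5.52e-05).

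Keratin 19 and claudin 4, described above, belonged to a list with rises and falls. Of 22 keratin and epithelial junction genes, 10 (45.5%) were higher at 48 h, 5 (22.7%) were lower and 7 did not pass. Both shares were above the 30.0% and 17.1% of all genes, and the median log2 fold change was 0.36. The lower count was 2 without replicate 1 at 12 h, and 3 and 2 without replicate 2 or 3 at 48 h. Besides Krt19 and Cldn4, desmoplakin (Dsp) had 68.6, 129 and 125 at 12 h and 1113, 981 and 369 at 48 h (log2 fold change 2.83, SE 0.43, limma adjusted p 0.00012). E-cadherin (Cdh1) fell, at 6725, 9498 and 11796 at 12 h and 5244, 4788 and 6298 at 48 h (log2 fold change -0.75, SE 0.19, limma adjusted p 0.00397). Of 27 integrins and laminins, 6 (22.2%) were higher at 48 h, 4 (14.8%) were lower and 17 did not pass, with a median log2 fold change of 0.08; the median was -0.02 on the plain columns and the lower count 2 without replicate 1 at 12 h. Both shares were below those of all genes, 30.0% and 17.1%. Itga7, a laminin receptor that injured neurons use for axon growth, had 13314, 10780 and 10624 at 12 h and 34146, 67524 and 35771 at 48 h, with replicate 2 highest at 48 h (log2 fold change 1.92, SE 0.26, limma adjusted p 6.06e-05). Its partner Itgb1 had 24744, 24027 and 23989 at 12 h and 54301, 62730 and 45513 at 48 h (log2 fold change 1.15, SE 0.15, limma adjusted p 5.17e-05). Lamb3 had 92.9, 64.5 and 48.3 at 12 h and 356, 922 and 452 at 48 h, with replicate 2 again highest at 48 h (log2 fold change 2.98, SE 0.35, limma adjusted p 2.93e-05). Of 46 axon guidance genes, 13 (28.3%) were higher at 48 h, 9 (19.6%) were lower and 24 did not pass, with a median log2 fold change of 0.19. These shares are near the 30.0% and 17.1% of all genes. Epha7, an ephrin receptor, had 162, 172 and 253 at 12 h and 1525, 1708 and 1013 at 48 h (log2 fold change 2.84, SE 0.45, limma adjusted p 0.000137), and the netrin receptor Unc5b had 1537, 951 and 1201 at 12 h and 3617, 4745 and 3889.7 at 48 h (log2 fold change 1.75, SE 0.24, limma adjusted p 6.08e-05); both rose without overlap. Sema4a fell (log2 fold change -1.42, SE 0.20, limma adjusted p 7.78e-05).

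Cell cycle and DNA replication genes had the highest share of called rises of the 35 lists. Of 41 measured, 32 (78.0%) were higher at 48 h, 0 (0%) were lower and 9 did not pass, with a median log2 fold change of 1.60, beside 30.0% higher and a median of 0.11 over all genes. Their summed normalized count was 14583 to 16763 at 12 h and 27545 to 39666 at 48 h. Top2a, the topoisomerase of dividing cells, had 29.6, 58.8 and 47.6 at 12 h and 1662, 1140.3 and 517 at 48 h. It was low in all 12 h cultures and lowest at 48 h in replicate 3 (log2 fold change 4.48, SE 0.64, limma adjusted p 7.3e-05). Pclaf (2810417H13Rik), a partner of PCNA, had 15.0, 23.5 and 7.49 at 12 h and 830.0, 758 and 188 at 48 h, with the same order of cultures at 48 h (log2 fold change 5.04, SE 0.94, limma adjusted p 0.000458). The mitotic kinase Aurkb had 14.1, 5.16 and 3.30 at 12 h and 200.02, 172 and 74.6 at 48 h (log2 fold change 4.23, SE 0.53, limma adjusted p 3.75e-05), and Mki67, which encodes the Ki-67 antigen, had 188, 221 and 257 at 12 h and 1454, 966 and 805 at 48 h (log2 fold change 2.24, SE 0.47, limma adjusted p 0.00107). Cyclin D1 (Ccnd1), which injured neurons can also express, had 1319.8, 1328 and 1003 at 12 h and 5858, 8846 and 3022 at 48 h and rose without overlap (log2 fold change 2.16, SE 0.44, limma adjusted p 0.000908). Sums for cells that can divide in such cultures are set beside this. The summed fibroblast and matrix list was 101020 to 115630 at 12 h and 109780 to 160660 at 48 h. The satellite glia list had 46676 to 61140 and 37205 to 47097, and the Schwann cell and myelin list 48549 to 58200 and 44846 to 45666. Abundant genes weigh most in sums. The mean log2 levels of fibroblast and matrix markers, minus the WT 12 h mean, were -0.52 to 0.62 at 12 h and 0.34 to 0.86 at 48 h. These ranges overlapped, with replicate 1 highest at 12 h. The levels were -0.12 to 0.06 and -1.53 to -1.21 for satellite glia, and -0.11 to 0.07 and -0.47 to -0.25 for Schwann cell markers. The part of these cells in the rise of the cell cycle genes was not tested.

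The promoters of Top2a and Cdk1 are shown because CCAAT boxes and the cell cycle homology region (CHR) are the elements known from genes of the G2 and M phases. They are again the 150 bases before the RefSeq start on GRCm38.p6 (mm10), 5′ to 3′ along the gene's strand, for Top2a at chr11:99024190-99024339, minus strand, and for Cdk1 at chr10:69352913-69353062, minus strand. Capitals mark CCAAT and the CHR letters TTTGAA, or their reverse complements where the match lies on the other strand.
Top2a: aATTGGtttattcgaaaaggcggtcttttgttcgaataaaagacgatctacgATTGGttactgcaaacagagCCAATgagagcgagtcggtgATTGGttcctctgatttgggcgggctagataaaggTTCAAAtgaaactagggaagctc
Cdk1: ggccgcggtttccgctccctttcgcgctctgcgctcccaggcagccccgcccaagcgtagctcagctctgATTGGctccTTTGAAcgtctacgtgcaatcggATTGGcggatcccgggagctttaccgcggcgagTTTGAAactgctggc
Top2a held 4 matches to CCAAT and 1 to the CHR letters, and Cdk1 held 2 and 2; none of them overlap. Cdk1, the mitotic kinase, had normalized counts of 38.6, 40.2 and 16.6 at 12 h and 277, 252 and 169 at 48 h and rose (log2 fold change 2.90, SE 0.45, limma adjusted p 0.000126). CCAAT stood in 77.8% of the 36 promoters of 300 bases of the cell cycle list, beside 37.3% of promoters of measured genes and 37.4% of all promoters. TTTGAA stood in 36.1% of them, beside 12.5% and 17.9%. A match is a description, and both promoters were chosen after the matches were seen. The sterol synthesis list, which was lower at 48 h, held CCAAT in 80.0% of its 20 promoters.

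Most markers of satellite glia, the cells that wrap the neuron cell bodies, fell. Of 12 measured, 1 (8.33%) was higher at 48 h, 8 (66.7%) were lower and 3 did not pass, beside 30.0% and 17.1% over all genes. The list median log2 fold change was -1.30. Apoe had 21523, 24423 and 16921 at 12 h and 3204, 3175 and 3239 at 48 h; the 48 h cultures were close to each other and far below the 12 h cultures (log2 fold change -2.69, SE 0.39, limma adjusted p 8.1e-05). Glul, the glutamine synthetase, rose, at 11520, 13824 and 11474 at 12 h and 19981, 17998 and 17388 at 48 h (log2 fold change 0.59, SE 0.09, limma adjusted p 0.00014). Of 18 Schwann cell and myelin markers, 2 (11.1%) were higher at 48 h, 6 (33.3%) were lower and 10 did not pass, with a median log2 fold change of -0.31, and the lower count was 3 without replicate 2 at 12 h. Sox10, a transcription factor of these glia, was not called (log2 fold change 0.17, SE 0.31, limma adjusted p 0.681).

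Among fibroblast and matrix markers, 6 of the 8 collagen genes were called higher, 1 lower and 1 did not pass. Of the 6, Col1a1 was not called without replicate 5 at 12 h (limma adjusted p 0.0815) or replicate 1 at 48 h (0.0709), nor Col6a3 without WT 12 h replicate 2 (limma adjusted p 0.0581), without WT 12 h replicate 5 (limma adjusted p 0.0561) and without WT 48 h replicate 1 (limma adjusted p 0.0502). Of all 22 markers measured, 12 (54.5%) were higher at 48 h, 4 (18.2%) were lower and 6 did not pass, beside 30.0% and 17.1% over all genes. The median log2 fold change was 1.10, and the higher count was 7 without replicate 5 at 12 h. Col1a2 had 2441, 1277 and 964 at 12 h and 14386, 11053 and 7378 at 48 h, with every 48 h culture higher (log2 fold change 2.87, SE 0.43, limma adjusted p 0.000103). Col5a1 had 1138, 704 and 701 at 12 h and 5069, 4527 and 2841 at 48 h (log2 fold change 2.28, SE 0.36, limma adjusted p 0.000145). Dcn (-0.20) and Pdgfra (-0.40), markers of fibroblasts as cells, were not called, and Dpt fell (log2 fold change -2.28, SE 0.64, limma adjusted p 0.00757). Of 19 macrophage markers, 5 (26.3%) were higher at 48 h, 4 (21.1%) were lower and 10 did not pass, with a median log2 fold change of 0.14, and summed counts of 3331 to 6488 at 12 h and 5787 to 8162 at 48 h. The shares are near those of all genes, 30.0% and 17.1%. The lysosomal marker Cd68 had 548, 507 and 347 at 12 h and 1079, 2322 and 1176 at 48 h and rose (log2 fold change 1.64, SE 0.30, limma adjusted p 0.000373), while Cd74, of antigen presentation, had 797, 920.4 and 501 at 12 h and 112, 117 and 143 at 48 h and fell (log2 fold change -2.53, SE 0.38, limma adjusted p 9.89e-05). Csf1r, the receptor that macrophages need, did not pass (log2 fold change 0.14, SE 0.22, limma adjusted p 0.625). Without replicate 2 at 48 h, 3 macrophage markers were higher. Of 17 endothelial markers, 0 (0%) were higher at 48 h, 8 (47.1%) were lower and 9 did not pass, with a median log2 fold change of -0.66, and summed counts of 23147 to 30330 at 12 h and 13997 to 18696 at 48 h; without replicate 2 at 48 h, 5 were lower. Cldn5, of endothelial tight junctions, had 389, 411 and 252 at 12 h and 68.8, 28.2 and 63.1 at 48 h (log2 fold change -2.76, SE 0.40, limma adjusted p 8.43e-05).

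Neutrophil and red cell genes had the lowest list medians. Of 13 neutrophil genes, 0 (0%) were higher at 48 h, 10 (76.9%) were lower and 3 did not pass, beside 30.0% and 17.1% over all genes. The list median log2 fold change was -3.05, and without replicate 2 at 12 h, 5 were lower. The summed list was 309 to 8364 at 12 h and 145 to 231 at 48 h, and replicate 5 was the low culture at 12 h. Ltf, lactoferrin, had 403, 671 and 49.0 at 12 h and 1.25, 3.24 and 15.3 at 48 h (log2 fold change -5.47, SE 1.11, limma adjusted p 0.000872). Ngp, a granule protein, had 488, 1365 and 19.8 at 12 h and 11.8, 3.33 and 7.39 at 48 h (log2 fold change -4.95, SE 1.35, limma adjusted p 0.00661). In both genes replicate 5 was much lower than the other 12 h cultures, and it was still above all 48 h cultures. In S100a9, at 989, 2065 and 42.7 at 12 h and 10.7, 21.9 and 44.4 at 48 h, replicate 5 fell within the 48 h values (log2 fold change -4.28, SE 1.28, limma adjusted p 0.0115), and S100a9 was not called without WT 12 h replicate 2 (limma adjusted p 0.0699). Retnlg (-4.64), Lcn2 (-4.22) and Cd177 (-3.83) were called lower. Of 6 red cell genes, 0 (0%) were higher at 48 h, 4 (66.7%) were lower and 2 did not pass, with a median log2 fold change of -3.26. Alas2, of heme synthesis, fell (log2 fold change -4.17, SE 0.80, limma adjusted p 0.000591). Slc4a1, the anion exchanger of the red cell membrane, had 224, 461 and 85.6 at 12 h and 4.81, 6.42 and 9.16 at 48 h and fell without overlap (log2 fold change -4.78, SE 0.75, limma adjusted p 0.000132). No marker of any of these lists was at 0, since the deposited values hold no 0.

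**Figure D5:**
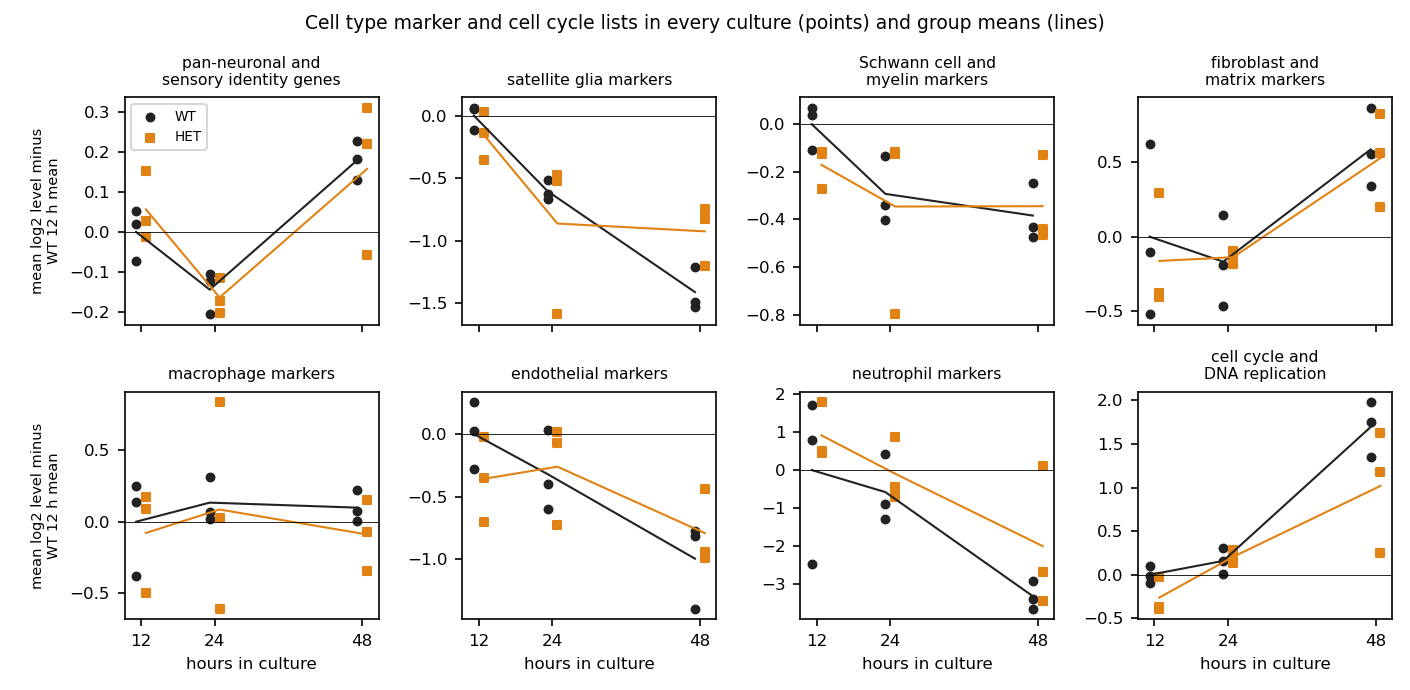
Mean log2 level of 8 lists of cell type markers and cell cycle genes in every culture, minus the mean of the WT 12 h cultures (vertical axis, log2 units), against hours in culture, with WT as circles, HET as squares and lines through group means. In WT the satellite glia, endothelial and neutrophil means lie below 0 at 48 h and the cell cycle mean above it, and 1 WT culture at 12 h, replicate 5, lies near the 48 h cultures in neutrophil genes.

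The WT cultures at 24 h, replicates 1, 2 and 5, gave a view between the times. The comparisons of 24 h and of 48 h share the 12 h cultures, so their values are set side by side only. Npy had 89.9, 62.2 and 66.8 at 24 h and Sprr1a 1134, 2159 and 1909, above the 12 h and below the 48 h values of each gene. Mrgprd had 1846, 1611 and 2239 and Fosb 697, 1074 and 1026, also between. Atf3 had 41625, 39687 and 39603 at 24 h, above all cultures at 12 and 48 h. Top2a had 135, 42.4 and 60.9, and Krt19 had 47.0, 37.6 and 24.8, both much nearer to the 12 h than to the 48 h values. Median differences from 12 h were 0.20 at 24 h and 1.60 at 48 h for cell cycle genes, -0.14 and 1.10 for fibroblast and matrix markers, and -0.67 and -1.62 for non-peptidergic nociceptor genes. For synaptic genes they were -0.38 and -0.60, and for satellite glia markers -0.65 and -1.30.

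Whether the change from 12 to 48 h differed between genotypes was tested against the 6 HET cultures of the same times, which carry 1 tm1a allele of Dynlrb1. The difference of the 2 changes, HET minus WT, was called in 0 of 17198 genes (0.0%) in limma, with 0 also in the fit with the replicate block and on the plain columns. An unadjusted p under 0.05 was held by 1534 genes (8.92%, where 5% would be held with no difference), and the lowest adjusted p was 0.548. The HET cultures are separate from the WT ones, but their replicate numbers differ between 12 and 48 h in the same way. HET 48 h replicate 3 stood apart from replicates 1 and 2 in some lists. In the order of replicates 1, 2 and 3, HET 48 h mean log2 levels of cell cycle genes, minus the WT 12 h mean, were 1.62, 1.18 and 0.25. Summed neutrophil counts were 190, 304 and 2460. Such spread lowers the power of the test, so a count of 0 does not show equal changes. Of the genes called higher in WT, 99.4% (5120 of 5152) had a positive change in HET, beside 62.5% of all genes. Of the genes called lower in WT, 96.0% (2828 of 2946) had a negative change in HET, beside 37.5% of all genes. These genes were selected on the WT calls, so the sizes of the changes in both genotypes are not compared over them. List medians in HET and WT were -0.31 and -0.87 for immediate early genes and -0.59 and -1.62 for non-peptidergic nociceptor genes. For tubulins they were 0.28 and 0.66. Neutrophil genes (-3.26 and -3.05) and keratin and epithelial junction genes (0.48 and 0.36) had the larger median in HET. These list differences were not tested. The 3 lowest p-values belonged to Gm15441, Prdm8 and Jph4. Jph4, a junctophilin of neurons, changed by -0.66 (SE 0.14) in HET and -1.56 (SE 0.14) in WT. Prdm8, a transcriptional regulator, changed by 0.07 (SE 0.11) in HET and -0.63 (SE 0.11) in WT. Gm15441 changed by -1.03 (SE 0.41) in HET and 1.71 (SE 0.41) in WT, on low values of 3.86, 2.83 and 1.27 at 12 h and 7.88, 18.7 and 7.42 at 48 h in WT. The limma adjusted p of each difference was 0.548.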

How the data were processed

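RNA was sequenced from 18 cultures, and the 6 WT cultures at 12 and 48 h were taken by the genotype, time and replicate number in the titles. CASAVA 1.8.2, edgeR and the build mm10 are named in the submitters' processing notes. The aligner, counting method, annotation and gene filter are not given in the sources used here. The values used are the authors' normalized counts, a signal column per sample, per the file headers. They hold no whole number and no 0, so reads could not be recovered and a count model was not used. A second signal column per sample, called plain, was deposited under the sample name alone and served as a check of scaling. The logarithms of the plain columns varied in 15 of the 17 directions possible among 18 samples. So 2 directions seem to have been removed before deposit, by a method that is not given. The spread between cultures may thus be understated, and the 12 residual degrees of freedom of the fit overstated. The FPKM columns deposited by the authors are not printed. Each log2 fold change, p-value and FDR of the authors' deposited table is theirs, per the file headers. These values were used only to count shared calls and, for Atf3, given beside the fit here. A further 24 per-sample ratio columns were not used.

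log2(normalized count + 1) was fitted in limma 3.58.1 (R 4.3.3) over all 18 samples with 1 coefficient per group and eBayes with a mean-variance trend, leaving 12 residual degrees of freedom. A minimum mean of 1 removed 0 genes, and p-values were adjusted by Benjamini-Hochberg over 17198 genes. The fit was tested on simulated data with 17198 genes. It recovered 99% of 2-fold and 100% of 4-fold changes, with 12 false calls among unchanged genes. Far fewer genes were changed there than were called here, and the simulated cultures had no effects of their own. The simulation therefore does not give the error rate of this comparison. The members, the 35 gene lists and the motifs were chosen with earlier results of these data known. Some lists share members, such as Scn10a, Scn11a, Snap25 and Syt1, so the counts of different lists are not independent. Genes were named by rule: the 12 largest changes in each direction among called genes whose groups did not overlap and whose higher mean was at least 100, the 8 called genes with the highest values in each direction, up to 3 called genes per list and direction with a mean of at least 20, Dynlrb1, and the 3 genes with the lowest p for the difference between genotypes. Other genes were picked from the lists, after their values were seen, for their known role. Gene coordinates are those of GENCODE on GRCm38 (mm10). Promoters came from RefSeq on GRCm38.p6, where 12961 of the 17198 genes matched by symbol or else by Entrez gene number. The WT cultures at 12 and 48 h share 2 replicate numbers. Some genes that the rule names are not reported here.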

Additional observations from a re-analysis of the deposited data

How the results depend on the processing

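The count of genes called between 12 and 48 h, 8098, stayed within 1.5 times under every alternative. It was 8848 with the replicate block, 7937 on the plain columns, 7652 after quantile normalization and 7547 from the 6 cultures alone. Without the mean-variance trend it was 7888, and for genes with a mean of at least 40 it was 7556. Pseudocounts of 0.1 and 10 gave 8096 and 8116. A fit added after seeing the data took the 2 directions missing from the plain columns as covariates and gave 7920. Leaving out 1 culture gave 6038 (WT 48 h replicate 2) to 7670 (WT 48 h replicate 3). The replicate number is not said to mark a shared animal or day. Same-numbered WT cultures at 12 and 48 h had deviations across genes that correlated at r 0.088 and 0.027. Pairs with different numbers ran from -0.18 to 0.24, highest for replicate 5 at 12 h with replicate 3 at 48 h. Xist, in contrast, largely followed the number across groups. The difference between genotypes gave 0 genes in each of its fits, and in these designs a count of 0 says nothing about stability. Of the 193 named genes that were called, 160 stayed past the threshold in the same direction under every setting, and 66 of 1120 list counts moved by over 1.5 times. No named gene changed direction. On the plain columns the medians of the pan-neuronal, apoptosis, integrin and laminin, dynein and dynactin, kinesin and oxidative phosphorylation lists turned from above to below 0. Depth is unknown, so the precision of low values cannot be separated from the spread between cultures.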

Other observations

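Xist largely followed the replicate number across times and genotypes. The 6 cultures numbered 1 had 11982 to 25866 normalized counts and the 4 numbered 5 had 36.1 to 90.0. Of the 6 numbered 2, WT at 48 h had 10302 and the others 1056 to 2450.4. The 2 numbered 3 had 19.0 in WT and 4680.5 in HET. Xist was chosen after its values were seen, and the sources used here do not say what the number marks.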
